A study of Mus musculus with 378 samples.

Results

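The nuclear-encoded oxidative phosphorylation genes are the genes in the nucleus that code for the proton-pumping complexes and the ATP synthase of mitochondria. They were taken by name from an expression table of T cells isolated from B16F10 melanoma. A gene was a member when its symbol began with Nduf, Uqcr or Atp5, or with Cox followed by a number from 4 to 8, and when it was not a pseudogene symbol ending in -ps. This gave 88 of the 23420 genes in the table. There were 38 genes of complex I and 7 complex I assembly factors named Ndufaf. The others were 8 genes of complex III, 18 of complex IV and 17 of the ATP synthase. A name is not always a role. Ndufa4 carries a complex I name but is known as a part of complex IV. Cox7a2l is known for joining complexes III and IV into supercomplexes, and Atp5s and Atp5sl are not core subunits of the ATP synthase.

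The study compared tumour-infiltrating T cells of wild-type (WT) C57BL/6 mice with those of C57BL/6 mice lacking Il27ra, the receptor chain for the cytokine interleukin-27. All mice carried B16F10 tumours, a transplanted mouse melanoma line, and every sample was taken from the tumour. Single T cells and pooled populations were sequenced with Smart-seq2, a full-length method without molecular identifiers. The 4 single-cell groups were WT CD8 (94 libraries), Il27ra KO CD8 (92 libraries), WT CD4 (94 libraries) and Il27ra KO CD4 (94 libraries), and each group had 1 population library. The labels named no animal, age or sex, so each genotype and cell type was treated as 1 sample and no p-value could be given. The isolation text named CD8+ T cells and the CD4 groups rest on the sample titles. The WT CD4 titles carried the tag p3 and the others p2. This tag cannot be told apart from genotype in CD4 cells or from cell type in WT cells. Each group's titles also carried a word of their own: cat in WT CD8, rabbit in Il27ra KO CD8, dog in WT CD4 and bird in Il27ra KO CD4. What the word stands for is not given in the titles, and in every comparison it cannot be told apart from the groups compared. The share of single cells with Il27ra RNA was no lower in labelled KO. It was above 0 in 26 of 67 WT CD8 cells and 39 of 74 CD8 cells labelled KO, and in 38 of 79 WT CD4 cells and 41 of 78 CD4 cells labelled KO. In the populations it stood at 47.6 FPKM in WT CD8 and 90.8 in CD8 labelled KO, and at 255.97 in WT CD4 and 95.2 in CD4 labelled KO, so it was lower in labelled KO in the CD4 populations alone. The groups are therefore called labelled KO throughout.

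Complex I takes electrons from NADH, complex III passes them to cytochrome c, complex IV hands them to oxygen, and the ATP synthase uses the proton gradient that these steps build. Most subunits are coded in the nucleus, made in the cytoplasm and imported, while a few of complexes I, III, IV and the ATP synthase are coded in mitochondrial DNA. T cells raise mitochondrial respiration on activation and in memory, and poor mitochondrial function is a known feature of exhausted T cells in tumours. Many of these genes have compact promoters that hold sites for the factors NRF1, YY1 and the ETS protein GABP.

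Promoter sequences are shown for members named in the results, for Atp5j, which is not named there, and for 2 tissue-restricted forms. RefSeq promoters of build GRCm38.p6 (300 bases, from 250 before to 50 after the gene start) were found for 70 of the 88 members, as 75 promoters. The NRF1 motif CGCATGCG was in 11 of these 75 promoters (14.7%) and in 1.87% of all 32851 promoters of the same length. The ETS motif CCGGAAG was in 15 of 75 (20%) against 8.86% of all promoters, and the YY1 motif AAGATGGCG was in 7 of 75 (9.33%) against 1.4%. Other large gene families held the same motifs. The ETS motif was in 32.9% of 73 mitochondrial ribosome promoters, 34.3% of 35 proteasome promoters and 34.8% of 69 cytoplasmic ribosome promoters, all above the members' 20%. The YY1 motif was in 8 of the 73 (10.96%), 5.71% and 8.7% of them and the NRF1 motif in 9.59%, 2.86% and 4.35%. The 7 promoters of members above 0 in under 10% of the kept cells held the NRF1 motif in 1 and the ETS motif in 1. The TATA motif TATAAA was in 8 of 75 (10.7%) against 13.6%. Both strands were searched for exact letters, and no 2 of the motifs printed here overlap. By complex, the NRF1 motif was in 2 of 6 promoters of assembly factors, 2 of 5 promoters of complex III, 4 of 16 of the ATP synthase, 1 of 13 of complex IV and 2 of 35 of complex I. The YY1 motif was in 5 of 35 promoters of complex I, 2 of 16 of the ATP synthase and none of complexes III and IV. A match describes the letters in this window and is not a measured site, and no binding was measured here.

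The sequences below are the 180 bases before the gene start, read 5′ to 3′ on the strand of the gene, with a motif on either strand in capitals (CTTCCGG is CCGGAAG on the other strand). Cox6a1, Atp5g2 and Atp5j hold the NRF1 motif. The other promoter of Atp5j, which is not printed, holds none of the motifs in the same stretch. Uqcrh and Atp5h hold the ETS motif and were members with large differences in CD4 cells. Cox6a1 and the printed promoter of Atp5j also hold the ETS motif, with smaller CD4 differences (labelled KO minus WT of 0.45 and 0.35 in all kept cells). Cox7a1 and Cox8b, the heart and muscle forms of complex IV subunits, hold no capitals in this stretch. The regions are chr5:115348959-115349138 (Cox6a1, minus strand), chr15:102671048-102671227 (Atp5g2, minus strand), chr16:84834977-84835156 (Atp5j, minus strand, 1 of its 2 promoters), chr4:116075071-116075250 (Uqcrh, minus strand), chr11:115419920-115420099 (Atp5h, minus strand), chr7:30183991-30184170 (Cox7a1, plus strand) and chr7:140900447-140900626 (Cox8b, minus strand).
Cox6a1: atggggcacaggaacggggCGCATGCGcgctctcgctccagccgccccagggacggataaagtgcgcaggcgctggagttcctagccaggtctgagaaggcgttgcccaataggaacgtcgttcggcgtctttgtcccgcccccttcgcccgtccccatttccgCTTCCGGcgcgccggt
Atp5g2: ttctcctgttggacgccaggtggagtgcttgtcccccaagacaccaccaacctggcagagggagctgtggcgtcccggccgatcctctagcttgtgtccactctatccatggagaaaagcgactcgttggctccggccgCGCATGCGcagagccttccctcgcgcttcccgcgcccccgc
Atp5j: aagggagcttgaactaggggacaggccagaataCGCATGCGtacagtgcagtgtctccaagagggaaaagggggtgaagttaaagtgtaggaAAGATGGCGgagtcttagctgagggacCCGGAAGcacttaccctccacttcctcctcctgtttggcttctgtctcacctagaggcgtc
Uqcrh: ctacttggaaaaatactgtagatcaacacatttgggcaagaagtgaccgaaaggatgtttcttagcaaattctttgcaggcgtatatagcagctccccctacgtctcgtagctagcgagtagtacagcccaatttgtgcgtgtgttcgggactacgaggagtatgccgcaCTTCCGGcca
Atp5h: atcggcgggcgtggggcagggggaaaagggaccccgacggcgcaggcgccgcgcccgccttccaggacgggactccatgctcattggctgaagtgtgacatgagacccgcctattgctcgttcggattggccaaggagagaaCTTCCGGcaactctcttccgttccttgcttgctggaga
Cox7a1: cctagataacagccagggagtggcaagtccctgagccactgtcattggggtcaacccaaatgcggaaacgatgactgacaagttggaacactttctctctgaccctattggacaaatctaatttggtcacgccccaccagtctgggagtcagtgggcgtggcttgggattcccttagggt
Cox8b: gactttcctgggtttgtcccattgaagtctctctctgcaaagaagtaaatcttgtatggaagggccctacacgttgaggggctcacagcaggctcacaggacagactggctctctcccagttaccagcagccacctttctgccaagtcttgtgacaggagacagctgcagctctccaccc

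A cell was kept when at least 1000 genes were above 0, which left out 76 of 374 single cells. The kept cells were 67 of WT CD8, 74 labelled KO CD8, 79 of WT CD4 and 78 labelled KO CD4. The median number of genes above 0 was 2919, 2797, 2307 and 2650.5 in that order, and the 4 populations held between 11134 and 12035. Total counts per library are not in the table. A rough estimate from the steps of the low values gave medians of 309385, 333814, 251284 and 313778 reads. Cd8a or Cd8b1 was above 0 in 94.03% of WT CD8 and 97.3% of CD8 cells labelled KO, and Cd4 in 79.7% and 89.7% of the CD4 cells. Cd8a or Cd8b1 was also above 0 in 30.4% and 37.2% of the CD4 cells. Among the kept cells, 22 lacked B2m or all of Cd3d, Cd3e and Cd3g and stood apart from T cells. The 11 of WT CD8 had 1 to 5 members above 0 (median 2) and a median of 1272 genes, and the 7 of WT CD4 had 1 to 15 members (median 6). The 3 of CD8 labelled KO had 55, 64 and 72 members, lacked all 3 Cd3 genes and carried 17975 to 132659 FPKM of 4 class II antigen-presentation genes. The single library of CD4 labelled KO had 56 members and 15142 FPKM of class II genes. Medians and counts of differences between groups are given with these libraries and without them, which leaves 56, 71, 72 and 77 cells. Levels and shares of cells by gene include them unless said otherwise. Other kept cells also held markers of other cell types. With the 22 libraries counted, 3 or more of the 4 class II genes were above 0 in 2, 7, 1 and 5 cells of WT CD8, CD8 labelled KO, WT CD4 and CD4 labelled KO, with sums of up to 205640 FPKM in a WT CD8 cell and 156487 in a CD4 cell labelled KO. At least 3 of 9 melanoma markers were above 0 in 8, 2, 7 and 3 cells. The part of these cells in the differences was not tested.

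Members were detected in all 4 groups, fewest in WT CD4 cells. A WT CD8 cell had 1 to 76 of the 88 members above 0, with a median of 40. A CD8 cell labelled KO had 19 to 72, with a median of 40. A WT CD4 cell had 1 to 69, with a median of 27, and a CD4 cell labelled KO had 6 to 73, with a median of 31. All 4 ranges overlapped. Leaving out the 22 libraries gave medians of 43, 40, 27.5 and 31. The populations, which pool many cells, had 81, 82, 79 and 79 members above 0. Within each group the number of members above 0 followed the number of genes above 0 (Pearson r of 0.94 in 67 WT CD8 cells, 0.90 in 74 CD8 cells labelled KO, 0.88 in 79 WT CD4 and 0.91 in 78 CD4 labelled KO). Cells of a group share their sample, and both numbers rise with the depth of a library.

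**Figure D1:**
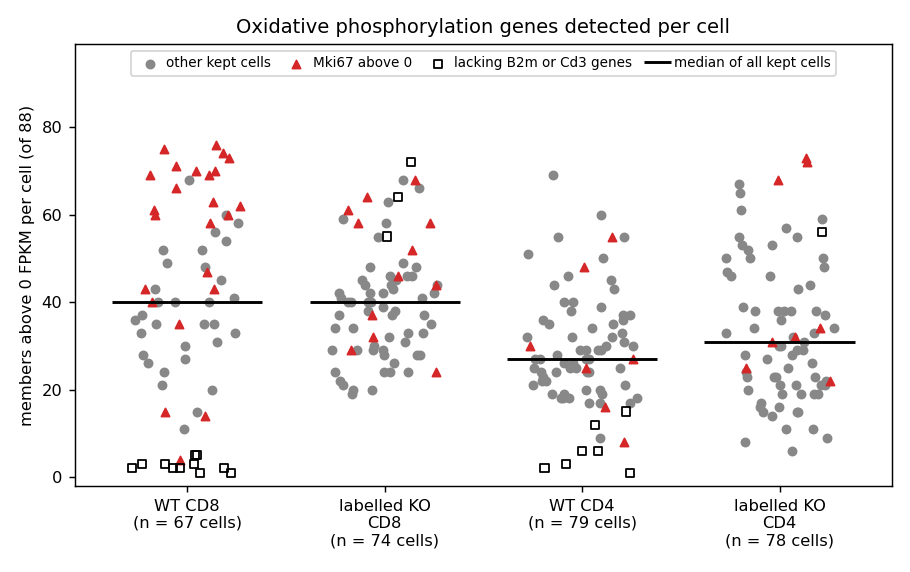
Each point is 1 kept cell, with its group on the x axis and the number of the 88 members above 0 on the y axis. Red triangles are cells with Mki67, open squares are libraries that lack B2m or the Cd3 genes, and lines are medians of all kept cells (40, 40, 27 and 31). The squares sit at 1 to 5 members in WT CD8 and at 55 to 72 in CD8 labelled KO.

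The members' part of the RNA was measured as their FPKM summed and given per 1000000 of the library's summed FPKM, which does not depend on how libraries were scaled. Its median without the 22 libraries was 19288 in WT CD8 cells (quartiles 16033 and 23742), 17131 in CD8 cells labelled KO (15309 and 19920), 15485 in WT CD4 cells (13144 and 17415) and 16890 in CD4 cells labelled KO (14279 and 19453). The quartile ranges overlapped in every pair of these groups. With the 22 libraries the medians were 18030, 17298, 15130 and 16792. The populations held 30769 (WT CD8), 20801 (CD8 labelled KO), 15360 (WT CD4) and 18471 (CD4 labelled KO). The WT CD8 population stood above the other 3, and it was also the library with melanoma RNA described further on. No member was among the 100 most abundant genes.

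By complex, the ATP synthase genes took the most RNA in each single-cell group when the 22 libraries were left out. The medians for WT CD8, CD8 labelled KO, WT CD4 and CD4 labelled KO were 6061, 5913, 5200 and 5494 FPKM per 1000000 for the ATP synthase. Complex IV was the complex with the widest gap between groups, at 4915, 4163.5, 3309 and 3719. Complex I, the group with the most genes, held 5599, 5267, 4888 and 4526. Among all kept WT CD4 cells, complex I (4872.5) stood above the ATP synthase (4801.6). Complex III held 1995, 1932, 1949 and 2280, and was highest in CD4 cells labelled KO. Across cells of 1 group, the complexes' mean log2(FPKM + 1) over their members moved together. Pearson r over pairs of complexes ran from 0.87 to 0.94 in 67 WT CD8 cells and 0.63 to 0.81 in 74 CD8 cells labelled KO. It ran from 0.59 to 0.80 in 79 WT CD4 and 0.74 to 0.85 in 78 CD4 labelled KO. These mean levels share the depth of the library. In WT CD8 cells without the 22 libraries r ran from 0.80 to 0.91. For the summed FPKM per 1000000, r ran from 0.26 to 0.60, -0.05 to 0.28, -0.08 to 0.30 and 0.05 to 0.35 in the same order of groups.

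**Figure D2:**
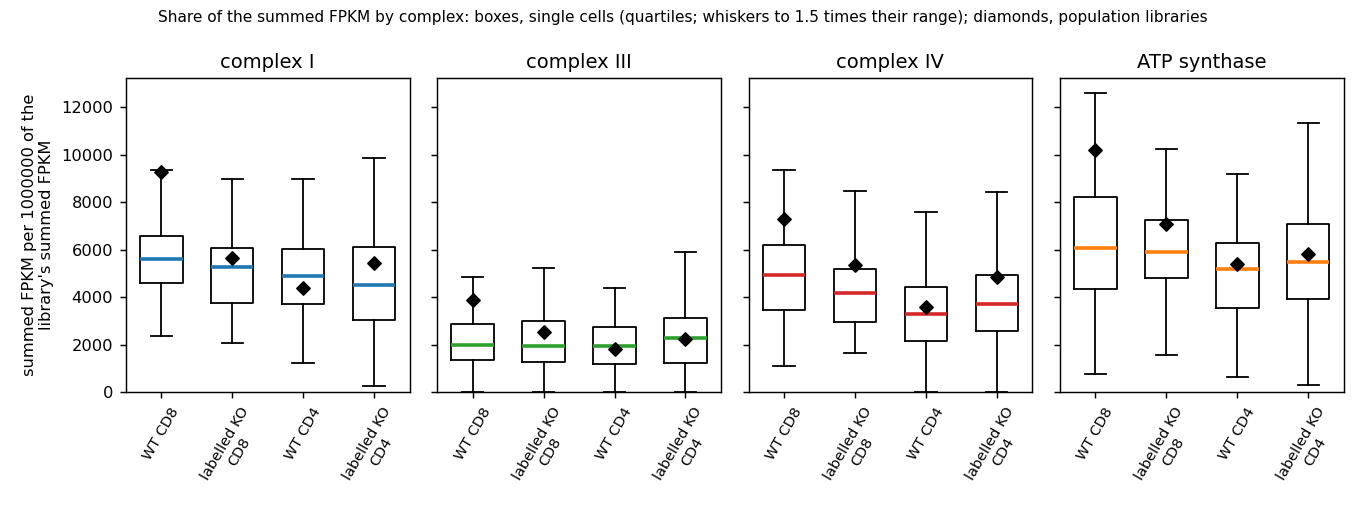
The summed FPKM of each complex per 1000000 of the library's FPKM is drawn for the 4 single-cell groups without the 22 libraries (box, median and quartiles over cells, with cells beyond the whiskers not drawn) and for the populations (diamonds). Complex IV has medians of 4915 in WT CD8 and 3309 in WT CD4 cells, and the WT CD8 population is the highest population in each complex.

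Detection differed between the complexes. Of the 88 members, 30 were above 0 in at least 50% of the kept cells: 12 of 17 ATP synthase genes, 11 of 18 of complex IV, 3 of 8 of complex III and 4 of 38 of complex I. The level of a gene is given as the mean of log2(FPKM + 1) over the cells of a group, a scale per gene length on which genes can be compared. The highest in the mean over the 4 single-cell groups (8.30) was Cox4i1, a regulatory subunit of complex IV that was above 0 in 83.6% of the kept cells. Its level was 8.25 ± 4.41 (SD over 67 cells of 1 sample) in WT CD8 and 9.24 ± 3.0 (74 cells) in CD8 labelled KO, and 7.44 ± 4.08 (79 cells) in WT CD4 and 8.28 ± 3.87 (78 cells) in CD4 labelled KO. In FPKM its values ran from 0 to 4858 (median 1221) in WT CD8, 0 to 3820 (1039) in CD8 labelled KO, 0 to 2402 (565) in WT CD4 and 0 to 5179 (944) in CD4 labelled KO. These ranges overlapped almost entirely. The populations had 4293, 2422, 1900 and 2954 FPKM in the same order.

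Atp5b, the catalytic beta subunit of the ATP synthase, was next (mean 8.26), was higher than Cox4i1 in both groups labelled KO and was above 0 in 85.6% of the kept cells. Its FPKM ran from 0 to 5945 (median 1423) in WT CD8, 0 to 4642 (1117) in CD8 labelled KO, 0 to 3861 (440) in WT CD4 and 0 to 6713 (1255) in CD4 labelled KO. Its levels of 8.19, 9.4, 6.98 and 8.49 differed by less than 1 SD over cells, which ran from 2.77 to 4.46. Atp5a1, the alpha subunit, had levels of 7.02, 8.36, 6.50 and 7.18. Complex III was led by Uqcrh, the hinge protein beside cytochrome c1, with 6.16, 7.65, 4.87 and 6.67, and its lowest gene in the mean over the groups (2.36) was the small subunit Uqcr11 (3.11, 2.61, 1.42 and 2.31). Uqcr10 was lower than it in CD8 labelled KO (2.34). Complex I genes were lower, led by Ndufa4 (6.11, 5.40, 4.56 and 5.27). The assembly factors were the lowest set: Ndufaf7, a methyltransferase, had 2.26, 1.73, 1.49 and 1.53, and Ndufaf6 had 0.40, 0.46, 0.50 and 0.45. Across the 88 members, populations and pooled single cells of the same group ranked genes alike (Pearson r 0.96, 0.96, 0.89 and 0.93 on the log2 scale).

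**Figure D3:**
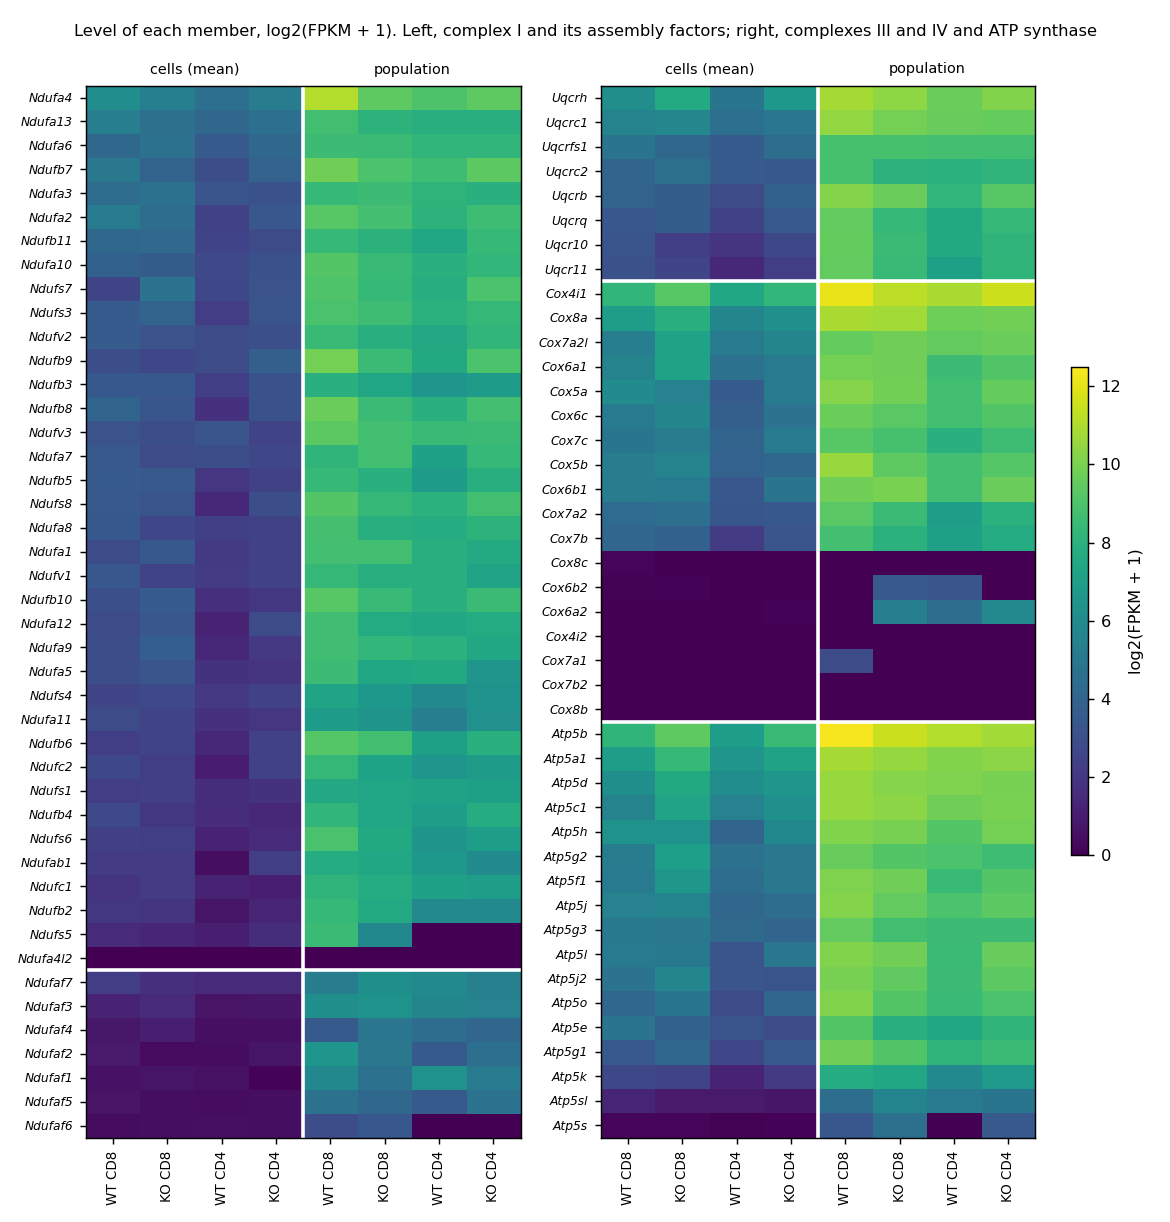
Each row is a member (1 is not shown), ordered by complex and level, and each column is 1 of the 4 single-cell groups (mean of log2(FPKM + 1) over kept cells) or 1 of the 4 populations (log2(FPKM + 1)). KO stands for the groups labelled KO. Cox4i1 reaches 9.24 in single CD8 cells labelled KO, and the muscle and testis forms of complex IV subunits stay at or near 0 in single cells.

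Where a subunit has forms for different tissues, the T cells held the common form. Cox6a1 was above 0 in 68.1% of the kept cells and its muscle form Cox6a2 in 1 cell. Cox6b1 was above 0 in 57.7% and the testis form Cox6b2 in 3 cells, while Cox4i2, the form of lung and low oxygen beside Cox4i1, was above 0 in 2 cells. Cox8a was above 0 in 75.8% of cells, Cox8c in 2 cells and the muscle form Cox8b in none. Cox7a2 was above 0 in 56.04% and Cox7b in 51.7%, and Cox7a1 (heart and muscle), Cox7b2 (testis) and Ndufa4l2 (induced at low oxygen) in no kept cell. A count of 0 in all kept cells allows a share of up to 1.01% of cells with RNA above 0, for counting error only. The 3 genes for the c subunit of the ATP synthase, which make the same mature protein, were all in use: Atp5g2 in 70.1% of cells, Atp5g3 in 61.7% and Atp5g1 in 44.3%. The populations listed Cox6a2 at 0 FPKM in WT CD8, 39.2 in CD8 labelled KO, 22.3 in WT CD4 and 58.8 in CD4 labelled KO, above its share of single cells. Cox7a1 was listed at 6.53 FPKM in the WT CD8 population and at 0 in the other 3. Ndufs5 was listed at 361.3, 55.3, 0 and 0 FPKM in the populations although it was above 0 in 11 of 79 and 16 of 78 single CD4 cells. A listed 0 in an RSEM table can be an estimate that gave its reads to a similar sequence, and members with close copies are uncertain for the same reason.

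In CD8 cells, the difference between labelled KO and WT turned on whether the libraries standing apart were counted. With all kept cells, the median difference (labelled KO minus WT, in log2(FPKM + 1)) was 0.09 over the 78 members that passed the filter, which asked for 10% of cells above 0 in the WT or the labelled KO group. The same median over all 9031 genes passing this filter was -0.08. Of the 78 members, 10 were higher by at least 1, where 5.94% of all genes were, and 1 was lower by at least 1, where 3.82% of all genes were. Without the 22 libraries the median over 78 members was -0.68, against -0.29 over all genes. Then 1 member was higher by at least 1 (1.84% of all genes) and 27 were lower by at least 1 (13.1% of all genes). The direction of the median thus depended on these libraries, 11 of WT with at most 5 members each and 3 labelled KO with 55 to 72 members. In 44 pairs of cells matched within 5% on the number of genes above 0, also without the 22 libraries, the median over members was 0.06.

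Ndufs7, an iron-sulfur subunit of complex I, had the largest positive CD8 difference in both sets of cells. It was above 0 in 23 of 67 WT CD8 cells (34.3%, exact 95% interval 23.2 to 46.9) and in 42 of 74 labelled KO (56.8%, 44.7 to 68.2). Its FPKM ran from 0 to 904 (median 0) in WT and from 0 to 2181 (median 46.9) in labelled KO. More labelled KO cells were high, and the 2 ranges overlapped. The difference was 2.12 with and 1.49 without the 22 libraries. The populations went the other way, at 9.05 in WT and 8.39 in labelled KO on the log2(FPKM + 1) scale, so the single-cell direction of Ndufs7 was not seen there.

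Other members with large positive CD8 differences kept their sign and were smaller without the 22 libraries. They were Cox7a2l (1.84, then 0.81), Atp5g2 (1.76, then 0.73), the gamma subunit Atp5c1 that forms the rotating stalk (1.70, then 0.59), Cox6a1 (1.57, then 0.35) and the b subunit Atp5f1 of the outer stalk (1.52, then 0.37). Atp5g2 was above 0 in 44 of 67 WT and 66 of 74 labelled KO cells, with FPKM from 0 to 1573 (median 143.4) and from 0 to 1995 (median 295.9). Cox6a1 was above 0 in 43 of 67 and 64 of 74 cells. The catalytic ATP synthase genes changed sign: Atp5a1 moved from 1.34 to -0.10 and Atp5b from 1.21 to -0.47. Cox4i1 moved from 0.99 to -0.71.

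Ndufb7 and Ndufa4 had the largest negative CD8 differences without the 22 libraries. Ndufb7, a membrane-arm subunit, differed by -1.02 with and -2.03 without the 22 libraries. It was above 0 in 39 of 56 WT and 33 of 71 labelled KO cells of the smaller set, with FPKM from 0 to 1958 (median 178.9) and from 0 to 934 (median 0). Ndufa4 differed by -0.72 and then -2.07. It was above 0 in 48 of 56 WT cells (85.7%, exact 95% interval 73.8 to 93.6) and in 46 of 71 labelled KO (64.8%, 52.5 to 75.8). These 2 genes were detected in fewer labelled KO cells, and their values overlapped between the groups. Also negative were Uqcr10 of complex III (-0.95, then -1.77), Atp5e, the epsilon subunit of the stalk (-0.89, then -1.82), the NADH-binding flavoprotein Ndufv1 (-0.82, then -1.63), Ndufa8 (-0.82, then -1.63) and Ndufa13, also known as GRIM-19 (-0.73, then -1.78).

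By complex, the CD8 medians were -0.11 for the 37 passing genes of complex I, -0.04 for 8 of complex III, 0.45 for 11 of complex IV and 0.67 for 16 of the ATP synthase. They were -0.74, -1.10, -0.71 and -0.35 without the 22 libraries. The ATP synthase stood highest in both sets, and differences between complexes were not tested. Other large gene families moved too. The mitochondrial ribosome genes (Mrpl and Mrps) had medians of -0.20 and -0.67 with and without the 22 libraries, the proteasome genes 0.17 and -0.62, and the cytoplasmic ribosome genes 1.62 and 0.16. The members' -0.68 was close to the values of the first 2 families. Among 8 cell-cycle genes the medians were -1.65 and -1.78, and Mki67 was above 0 in 26 of 67 WT and 12 of 74 labelled KO cells. The median over members was 0.93 without cells holding Mki67, and -0.13 without these cells and the 22 libraries. Cells with Mki67 also had more genes above 0, a median of 4700.5 against 2890.5 in WT CD8 cells outside the 22 libraries, and the part of each was not tested.

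**Figure D4:**
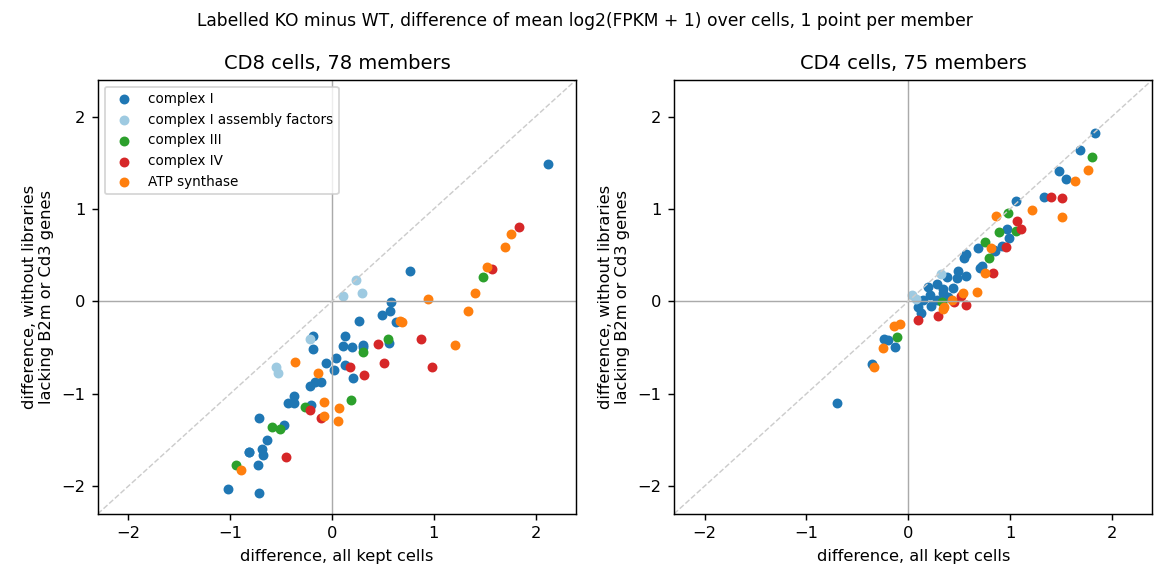
Each point is a member that passed the filter, with its difference between labelled KO and WT in all kept cells on the x axis and without the 22 libraries on the y axis, in log2(FPKM + 1), for CD8 (left) and CD4 cells (right). In CD8 cells the cloud lies below the diagonal and Ndufs7 stays at 2.12 and 1.49, while in CD4 cells the points lie nearer to it.

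The difference in CD8 cells lay partly in how many cells held a transcript and partly in how much they held. Without the 22 libraries, the share of cells above 0 was lower in labelled KO for 63 of 78 members, with a median difference of -7.66 percentage points. It was lower for 76.2% of all 9057 genes passing the filter, with a median of -6.14 points, so the members' share was near that of all genes. The median number of genes above 0 in these cells was 3145.5 in WT and 2782 in labelled KO. Among cells above 0, the mean log2(FPKM + 1) was lower for 47 of the 75 members with at least 10 such cells in both groups, with a median of -0.20, and for 47.4% of 6315 such genes in all, with a median of 0.04. Complex I differed mostly in share (lower for 35 of 37 genes, median level difference -0.08). Complex IV differed mostly in level (lower for 10 of 11 genes, median -0.52, with a median share difference of -3.09 points). Cox8a shows this: it was above 0 in 46 of 56 WT and 64 of 71 labelled KO cells, with mean FPKM of 962 and 545.

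**Figure D5:**
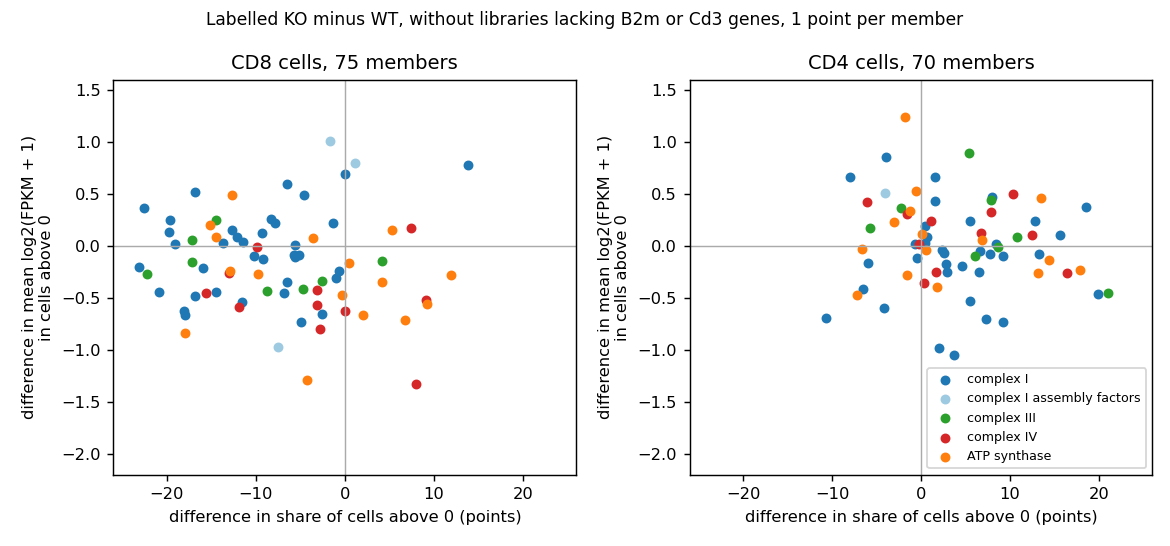
Each point is a member with at least 10 cells above 0 in both groups, without the 22 libraries. The x axis is the difference between labelled KO and WT in the share of cells above 0 (percentage points) and the y axis the difference in mean log2(FPKM + 1) among those cells. In CD8 cells (left) 10 of 11 complex IV genes lie below 0 on the y axis, and in CD4 cells (right) the points lie around 0.

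In CD4 cells, members were higher in labelled KO than in WT. The median difference was 0.54 over 76 members passing the filter, against 0.17 over all genes, and 66 of the 76 were above 0. By at least 1, 16 were higher (7.73% of all genes were) and none was lower (0.342% of all genes). The share of cells above 0 was higher in labelled KO for 63 of 76 members and for 70.8% of all 8176 genes. Without the 22 libraries the median was 0.27 over 75 members, against 0.09 over all genes, with 55 above 0, 11 higher by at least 1 (4.65% of all genes) and 1 lower (1.1% of all genes). WT CD4 cells had fewer genes above 0 (2307 against 2650.5), and in 57 pairs matched on that number the median over members was 0.070. No test was possible with 1 sample per group, and the tag p3 goes with WT CD4.

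Ndufab1, the mitochondrial acyl carrier protein that is also part of complex I, had the largest CD4 difference. It was above 0 in 6 of 79 WT CD4 cells (7.59%, exact 95% interval 2.84 to 15.8) and in 26 of 78 labelled KO (33.3%, 23.1 to 44.9). Its FPKM ran from 0 to 150.9 in WT and from 0 to 641 in labelled KO, with a median of 0 in both. Its difference was 1.84 with and 1.83 without the 22 libraries. In the CD8 groups it was above 0 in 22 of 67 and 26 of 74 cells, near the share of CD4 cells labelled KO, so WT CD4 was the group that stood low. The CD4 populations had the other order, 6.67 in WT and 6.03 in labelled KO.

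Uqcrh was above 0 in 42 of 79 WT CD4 and 60 of 78 labelled KO cells, with FPKM from 0 to 2009 (median 201.2) and from 0 to 1870 (median 357.4). The ranges overlapped, and more labelled KO cells were above 0. The difference was 1.80 with and 1.57 without the 22 libraries. Atp5h, the d subunit of the outer stalk of the ATP synthase, was above 0 in 39 of 79 and 52 of 78 cells (1.77, then 1.42). The others at the top were Ndufa12 (1.69, then 1.63), Atp5l, the g subunit of the membrane part (1.64, then 1.31), and the iron-sulfur subunit Ndufs8 (1.55, then 1.32). Each of these 6 genes was higher in labelled KO CD4 cells by more than 1 in both sets of cells. The genes were picked for their size and the sets share most of their cells, so this is not a second check. As log2 of the mean FPKM in all kept cells, Ndufab1 (3.01), Ndufa12 (1.85), Atp5h (1.07) and Ndufs8 (1.05) differed by more than 1. Uqcrh (0.60) and Atp5l (0.58) did not.

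At the other end, Ndufv3, a small flavoprotein-module subunit, differed by -0.70 with and -1.10 without the 22 libraries and was above 0 in 32 of 79 WT and 27 of 78 labelled KO CD4 cells. The next were Ndufa7 (-0.36, then -0.68), Atp5e (-0.34, then -0.71), the c subunit gene Atp5g3 (-0.25, then -0.50), Ndufc1 (-0.23, then -0.40) and Ndufb4 (-0.20, then -0.42), all smaller than the differences of the 6 genes at the top. By complex the CD4 medians were 0.48 for complex I, 0.84 for complex III, 0.83 for complex IV and 0.61 for the ATP synthase, and without the 22 libraries 0.26, 0.70, 0.31 and 0.09. Complex III thus kept most of its difference and the ATP synthase little. Beside them, the mitochondrial ribosome genes had a median of 0.23, the proteasome 0.92 and the cytoplasmic ribosome 0.90. In shares and levels without the 22 libraries, 53 of 75 members were above 0 in more labelled KO cells (median 2.81 points), where 63.2% of all 8024 genes were (median 2.33 points). Among cells above 0 as many members were higher as lower (35 each of 70), and 45.5% of 5730 such genes in all were higher.

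Between cell types, the median over members was higher in CD8 than in CD4 cells in both genotypes, with and without the 22 libraries. In WT cells its sign changed when cells were matched on genes detected. Members above 0 followed genes above 0 in each group, so this matching is partly a matching on the members. The part of detection in the difference was not tested. In WT cells the median difference (CD8 minus CD4) was 1.14 over 78 members and 0.33 over all genes. There were 76 members above 0 and 45 higher by at least 1, where 14.1% of all genes were, and none was lower by at least 1 (2.08% of all genes). The median without the 22 libraries was 1.58 over 78 members, all of them above 0, with 58 higher by at least 1 (24.5% of all genes) and none lower (1.63%). Most genes moved the same way: in these cells the share of cells above 0 was higher in WT CD8 for 78 of 78 members and for 85.6% of all 9037 genes. In pairs of cells matched on genes detected, the median over members was -0.17 (42 pairs), and -0.023 without the 22 libraries (36 pairs). Matched on estimated reads instead, it was 0.77 (45 pairs). It was 0.13 without cells holding Mki67 and 0.69 as log2 of the mean FPKM.

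The largest WT differences were those of Ndufa2 (2.73), Cox5a (2.37), Atp5h (2.30) and Ndufb8 (2.20). Ndufa2, a small complex I subunit with a thioredoxin-like fold, was above 0 in 42 of 67 WT CD8 and 27 of 79 WT CD4 cells, with FPKM from 0 to 1387 (median 158.5) and from 0 to 773 (median 0). Cox5a, a matrix-side subunit of complex IV, was above 0 in 45 of 67 and 34 of 79 cells. Both genes were seen in more CD8 than CD4 cells. Ndufs7 (-0.10) and Ndufv3 (-0.07) were the only members passing the filter below 0 among all kept WT cells. Among cells above 0, without the 22 libraries, all 11 passing genes of complex IV had the higher level in WT CD8 cells (median 0.66), while 14 of 35 complex I genes did (median -0.07). Of all 5645 such genes, 38.9% had the higher level in WT CD8 cells (median -0.19).

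In the groups labelled KO, which share no cells with the WT groups, the CD8 minus CD4 median was 0.58 over 76 members and 0.10 over all genes. It was above 0 for 68, with 22 members higher by at least 1 (7.7% of all genes) and 1 lower (2.79%). It was 0.55 without the 22 libraries, with 18 higher (7.53%) and 1 lower (3.08%), and in 58 matched pairs it was 0.20. As log2 of the mean FPKM it was 0.14. In all kept cells, the share of cells above 0 was higher in CD8 for 67 of 76 members and for 61.8% of all 8473 genes. The top members were the f subunit gene Atp5j2 (2.46), Cox6a1 (2.07), Atp5g2 (2.03) and Ndufa9 (1.64). Atp5j2 was above 0 in 56 of 74 CD8 and 34 of 78 CD4 cells. The member that was lower by at least 1 was Ndufb9 (-1.13), above 0 in 24 of 74 CD8 and 35 of 78 CD4 cells, followed by Uqcr10 (-0.35), Ndufs5 (-0.28) and the Rieske iron-sulfur protein Uqcrfs1 (-0.21). Complex IV and the ATP synthase differed most here, with medians of 0.98 and 0.96, against 0.50 for complex I and 0.25 for complex III. These values share groups with the genotype comparisons and are set beside them only as values.

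In the population libraries, members were lower in CD8 labelled KO than in WT CD8 and higher in CD4 labelled KO than in WT CD4. In such pooled RNA, fewer cells of a type and less RNA per cell cannot be told apart. The CD8 median was -0.50 over 83 members above 1 FPKM in either library, against 0.03 over all genes, and 13 of the 83 were above 0. By at least 1, 5 were higher (21.5% of all genes) and 15 lower (21.5%). The members that stood lowest against WT among genes above 0 in both libraries were Ndufs5 (8.5 to 5.82), Ndufa4 (11.07 to 9.41), Ndufaf2 (6.58 to 4.97) and Ndufb9 (9.87 to 8.52). Complexes I, III, IV and the ATP synthase had medians of -0.63, -0.65, -0.40 and -0.38. The WT CD8 population also held 15435 FPKM of 9 melanoma markers, all 9 above 0, against 46.4 in CD8 labelled KO. In CD8 labelled KO, Mlana, Mitf, Sox10 and Slc45a2 were at 0. That population in turn held 20736 FPKM of class II genes against 158.1 in WT. The part of melanoma and class II RNA in the members' difference was not tested.

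In the CD4 populations the median was 0.42 over 80 members, against -0.12 over all genes, with 58 above 0, 9 higher by at least 1 (17.6% of all genes) and 3 lower (23.2%). Ndufb9 went from 7.57 in WT to 8.98 in labelled KO, Ndufs7 from 7.80 to 8.98, Ndufa7 from 7.17 to 8.31 and Atp5l from 8.51 to 9.60. Of these, Atp5l was also among the top members in single CD4 cells, and Ndufa7 had the other sign there (-0.36). The lowest were Cox6b2, listed at 0 in labelled KO and at 3.28 in WT, Ndufaf1 (6.37 to 5.19) and Ndufa5 (7.57 to 6.50). The CD4 populations held 100.7 and 37.5 FPKM of melanoma markers and 7481 and 5193 FPKM of class II genes, in WT and labelled KO. Medians by complex were 0.35, 0.49, 0.56 and 0.37. Between cell types, the WT populations differed by a median of 1.16 over 83 members (CD8 minus CD4), with 52 higher by at least 1 (25.9% of all genes) and 2 lower (24.9%). The labelled KO populations differed by 0.26 over 82 members, with 7 higher (23.5%) and none lower (17.3%).

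The electron carriers and the rest of the pathway were read from lists by role. Of the 16 catalytic and core subunits among the members, 4 were higher by at least 1 in CD8 cells labelled KO and none lower. Their median was 0.31, and of all genes 5.94% were higher and 3.82% lower. Without the 22 libraries 1 was higher and 5 lower (median -0.60), where 1.84% and 13.1% of all genes were. In CD4 cells 3 of the 16 were higher and none lower (median 0.70, then 0.28), where 7.73% and 0.342% of all genes were. Of the 19 genes with tissue forms, 11 passed the filter, with medians of 0.68 and -0.71 in CD8 and 0.57 and 0.05 in CD4 cells, with and without the 22 libraries. Complex II, which feeds electrons from succinate, had 6 of 6 genes passing. Its CD8 median was 0.16 (then -0.32) with none past 1, and its CD4 median was 0.42 (then 0.38) with Sdhb at 1.82 and Sdha at 1.37. Cytochrome c (Cycs) is the link between complexes III and IV. Cytochrome c1 (Cyc1) is a part of complex III whose symbol the naming rule did not take. Cycs and Cyc1 were at 1.21 and 1.11 in CD8 and 0.82 and 0.96 in CD4 cells. Both stayed above 0 in CD8 cells without the 22 libraries (0.50 and 0.19).

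Of 33 assembly factors, 28 passed in CD8 cells with a median of -0.19 and none past 1. In CD4 cells 24 passed with a median of 0.30 and 1 past 1, the complex IV factor Coa3 (1.25). Of all genes, 5.94% were higher and 3.82% lower by at least 1 in CD8 cells, and 7.73% and 0.342% in CD4 cells. The ATP synthase inhibitor Atpif1 was at -1.50 in CD8 cells labelled KO and at -2.15 without the 22 libraries, the only gene of its list of 4 to be lower by at least 1 in all kept CD8 cells. The list's medians were -0.15 in CD8 and 0.62 in CD4 cells. Genes of mitochondrial biogenesis and DNA upkeep had medians of -0.07 (18 of 22 passing) and 0.38 (14 of 22), and those of the citric acid cycle 0.28 (18 of 20) and 0.23 (19 of 20). Pdhb of pyruvate dehydrogenase was at 1.33 in CD8 cells. The carriers that move ADP, ATP and phosphate across the inner membrane, with the channel genes listed beside them, were highest of these lists after cytochrome c in CD8 cells (median 0.91, 6 of 7 passing) and highest of them in CD4 cells (1.32). There the ADP and ATP carrier Slc25a4 was at 1.92, and the phosphate carrier Slc25a3 was at 1.59 in CD8 cells. Hif1a, the low-oxygen factor, was higher in CD4 than in CD8 cells (CD8 minus CD4 of -1.34 in WT and -2.43 in labelled KO), opposite in sign to most members. Among 16 housekeeping genes the CD8 median was 1.18 with and -0.08 without the 22 libraries, so those libraries also moved genes outside the pathway. The 1.18 stood above the 0.91 of the carriers. Apart from Atpif1 and the housekeeping genes, values in this paragraph are given with all kept cells only.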

How the data were processed

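The deposited table holds 1 FPKM value (fragments by gene length and library size) per gene and library, normalized by the authors between libraries with TMM, per the labels. Bowtie, RSEM and the build mm10 are named in the submitters' processing notes. Versions and the gene annotation are not given in the sources used here. Sums of FPKM run over RNA that RSEM may split between close copies of a gene. All columns were matched to samples by title, with 0 left unmatched.

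From these values, cells with at least 1000 genes above 0 were kept. Levels are means of log2(FPKM + 1) over cells. Differences were taken over genes for which at least 1 of the compared groups had 10% of its cells above 0 (populations: above 1 FPKM in either). With 1 sample per group no test was run, and an absolute difference of at least 1 was the fixed size that was counted. Exact intervals (Clopper-Pearson, 95%) cover counting error only. Depth was estimated from the steps between low values, counted as whole within 0.1 reads, as a median of 61.2% of them were, and is rough. Members named were the highest and lowest of each complex, the 6 with the largest difference either way between genotypes and the 4 between cell types (above 0 in at least 20% of cells), the tissue forms and core subunits, and the leading genes of the other lists. The members named in the populations, and Cox8a for its level, were chosen after their values were seen. The members, the lists and the libraries to leave out were chosen with earlier results of these data known. Alternatives were the pseudocount, the filter on cells, matching on genes or reads and leaving out cells. The mitochondrially encoded genes were not analysed here. Values of 1 complex I member are not reported here, though counts and medians include it. Python 3.11.15, pandas 2.3.3, numpy 2.4.6, scipy 1.17.1 and matplotlib 3.10.9 were used.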

Additional observations from a re-analysis of the deposited data

Results flagged for a closer look

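The members' median difference between labelled KO and WT had opposite signs in the 2 cell types in 2 readings. In single cells without the 22 libraries lacking B2m or the Cd3 genes, it was -0.68 in CD8 and 0.27 in CD4 cells on the log2(FPKM + 1) scale. In the populations it was -0.50 in CD8 and 0.42 in CD4. The difference between the cell types was not tested, since each group is 1 sample, and with all kept cells the CD8 median was 0.09. In the single cells, Mki67 was above 0 in fewer labelled KO than WT CD8 cells (12 of 74 against 26 of 67), and its part was not tested. Matched on genes detected and without the 22 libraries, the medians were 0.06 in CD8 and 0.048 in CD4 cells, of the same sign and near 0. In the populations, the melanoma and class II RNA of the CD8 libraries stands beside it.

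Among the 76 single-cell libraries under the minimum of 1000 genes, which no comparison used, 43 had at least 1 member above 0, with a median of 1 and at most 8 over the 76.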

How the results depend on the processing

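Over all alternatives, 83 values stayed near the main value, 53 moved and 8 changed sign. Counts of members and summed FPKM have no sign, so only the median differences could change sign. For the CD8 difference between labelled KO and WT (0.09, 11 members past 1), the median was -0.029 as log2 of the mean FPKM, -0.38 with at least 2000 genes, -0.68 without the 22 libraries, -0.13 also without Mki67 cells, -0.49 matched on estimated reads and -0.32 as log2 of the mean FPKM without the 22 libraries. It was 0.35 with every library, 0.29 matched on genes and 0.93 without Mki67 cells only. The members past 1, higher and lower together, numbered 20 and 4 with pseudocounts of 0.1 and 10. In the order of the other settings they numbered 2, 19, 28, 24, 21 and 6, and 35 without Mki67 cells. Most of the 11 were higher and most of the 28 lower. Of all genes, 5.94% were higher by at least 1 and 3.82% lower with all kept cells, and 1.84% and 13.1% without the 22 libraries. These shares are not given here for the other settings. For the CD4 difference (0.54, 16 members), the median was 0.33 with a pseudocount of 10, 0.070 matched on genes, 0.27 without the 22 libraries, 0.31 without Mki67 cells, 0.10 without both and 0.048 matched on genes without the 22 libraries. The counts were 31 and 5 with pseudocounts of 0.1 and 10, and 9 matched on genes. The count was 7 as log2 of the mean FPKM without the 22 libraries. With all kept cells, 7.73% of all genes were higher by at least 1 and 0.342% lower. For CD8 minus CD4 in WT (1.14, 45 members), the median was -0.17 and, without the 22 libraries, -0.023 when matched on genes. It was 0.67 with a pseudocount of 10, 0.69 as log2 of the mean FPKM, 0.45 with every library and 0.13 without Mki67 cells. The counts were 11, 19, 13, 21, 10 and 8 in that order, and 29 matched on reads. The count was also 29 as log2 of the mean FPKM without the 22 libraries. With all kept cells, 14.1% of all genes were higher by at least 1 and 2.08% lower. For CD8 minus CD4 in labelled KO (0.58, 23 members), the median was 0.89 and 0.32 with pseudocounts of 0.1 and 10, 0.14 as log2 of the mean FPKM, 0.37 with at least 2000 genes, 0.20 and 0.14 matched on genes with and without the 22 libraries, 0.21 matched on reads and 0.10 as log2 of the mean FPKM without them. The counts were 36, 6, 4, 12, 12, 13 and 4, leaving out the setting of 2000 genes, and 14 with every library. With all kept cells, 7.7% of all genes were higher by at least 1 and 2.79% lower. Without the 100 most abundant genes in the sum, the members' FPKM per 1000000 was 29025 in WT CD8, 27489 in CD8 labelled KO and 25383 in CD4 labelled KO cells. The causes were not tested. The settings that leave out the 22 libraries, match on reads or combine 2 choices were chosen after seeing the data.

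No paired analysis was run, because the labels name no animal and the running library numbers do not pair cells across groups. The titles carry WT4 in both WT groups and KO4 in both groups labelled KO. What this number stands for is not given, so whether CD8 and CD4 cells of a genotype share a source is unknown. The CD8 minus CD4 differences are therefore not known to be between independent samples. Each group is 1 sample, so no difference has a replicate check and SDs are over cells. Depth was only estimated, and a listed 0 does not show that a gene was absent.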

Other observations

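Dividing and regulatory T cells differed in how many members they held. Leaving out the 22 libraries, 24 of 56 WT CD8 cells held Mki67, a marker of dividing cells. They had a median of 61.5 members above 0 against 36.5 in the 32 others, with 4700.5 against 2890.5 genes above 0. Their summed member FPKM per 1000000 was 23572 against 17895. Among CD8 cells labelled KO, 12 held Mki67 and had 49 members against 38, with 3596.5 against 2760 genes and 18777 against 16761 FPKM per 1000000. In CD4 cells the pattern was uneven: 7 WT cells with Mki67 had 27 members against 28 (14214 against 15489 FPKM per 1000000), and 8 labelled KO cells had 33 against 30 (23251 against 16148).

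Foxp3, the factor that defines regulatory T cells, was above 0 in 29 of 72 WT CD4 and 39 of 77 CD4 cells labelled KO. WT cells with Foxp3 had a median of 32 members above 0 against 26 in cells without, and 2895 against 2147 genes. Labelled KO cells with Foxp3 had 37 against 24.5 members, and 2809 against 2457 genes. Their member FPKM per 1000000 was 16372 against 15130 in WT and 16968 against 16290 in labelled KO. Cells of a group are parts of 1 sample, so these differences have no test, and the number of genes above 0 moved with the members in the CD8 and Foxp3 values.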
